A study of Mus musculus with 24 samples.

Results

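Inguinal white adipose tissue of male mice was compared between postnatal day 21 (p21, 4 animals: 37, 38, 53 and 54) and day 28 after standard weaning (p28 SW, 4 animals: 78, 84, 85 and 124). These 8 libraries, 1 per mouse, were chosen by age, sex and weaning label from the 24 of the series. The other 16 are p28 males kept with the mother (delayed weaning, DW, 4 animals) and the 3 matching groups of females (4 animals each). They entered the model fit to share its estimate of spread. All groups are labelled only by age, sex and weaning, and no strain, genotype or diet is given in the labels used here. The p21 animals of both sexes also carry the standard weaning label, but SW below stands for the p28 animals. The p28 SW pups had been separated from the mother at p21, so the passage from p21 to p28 SW joins a week of growth with the loss of milk and the mother, which cannot be told apart in this comparison.

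The inguinal pad is a subcutaneous fat depot that fills rapidly with lipid in suckling and newly weaned mice. White adipocytes store fatty acids as triglyceride, and can take them from food or make them from sugar through citrate export from mitochondria, acetyl-CoA carboxylase, fatty acid synthase, elongases and desaturases. The pad lies against muscles of the thigh and flank, contains a lymph node, and carries blood, vessels, nerve fibres and immune cells, so a dissected piece can hold differing amounts of each.

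Recovered reads ranged from 57600711 to 154451057 in p21 males and from 76850086 to 302145813 in SW males. One library of each age stood apart in the number of genes with at least 1 read. Male 53 had 14054 such genes, against 15859 to 15977 in the other p21 males, and male 84 had 15497, against 15955 to 16042 in the other SW males. Of 16005 genes tested, limma called 1901 (11.9%) at a Benjamini-Hochberg adjusted p under 0.05, 1105 higher (6.90%) and 796 lower (4.97%) at p28 SW. In 1365 genes (8.53%) every SW male was above every p21 male, and in 1230 (7.69%) below. Without males 53 and 84 the fit called 1037 genes, and without SW male 85 alone it called 1150. A called gene is one past that threshold, values are the deposited normalised counts, and changes are differences in log2(value + 1), which understate the change of low genes. A value of 1 stands for many reads. For the muscle gene Myh4, the value of 0.201 in p21 male 37 was 31 reads, and 289 in p21 male 38 was 53224 reads. Over all genes the shares called, 6.90% higher and 4.97% lower, are the background for each count of list members below.

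Skeletal muscle genes were examined first, because they held the largest differences. The 24 genes of the muscle list, mostly of fast fibres, took 0.0098%, 0.1047%, 0.0201% and 0.0113% of the reads in p21 males 37, 38, 53 and 54. In SW males 78, 84, 85 and 124 they took 0.577%, 0.0689%, 0.9468% and 0.4512%. Male 38 was thus the highest of its group and exceeded SW male 84, and the groups overlapped. The 16 adipocyte genes took 3.78% to 4.54% of reads at p21 and 3.85% to 4.68% at p28 SW, ranges that overlapped nearly throughout. Their mean log2(value + 1), in which each gene counts equally, was 9.55 to 9.81 at p21 and 9.94 to 10.13 at p28 SW, without overlap. The adipocyte result thus depends on the measure. In bulk tissue, fewer cells of a type and less RNA per cell cannot be told apart.

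**Figure D1:**
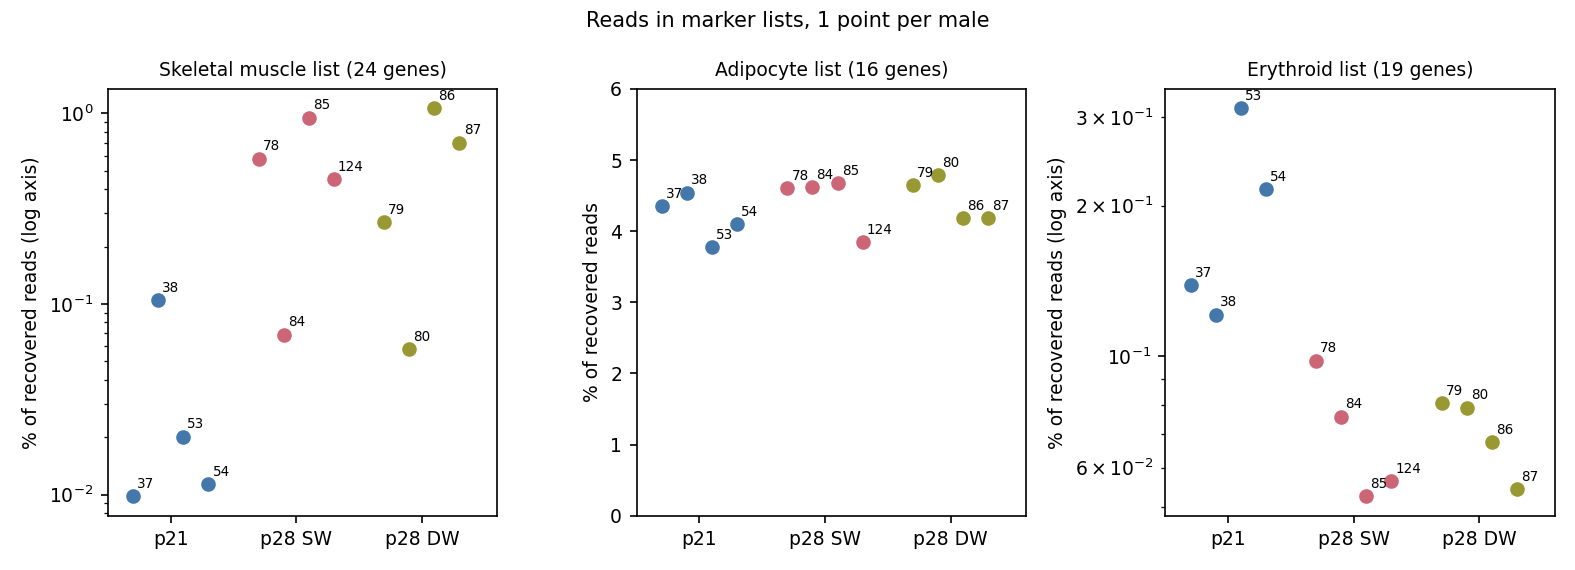
Share of recovered reads in the skeletal muscle, adipocyte and erythroid lists, with 1 numbered point per male; the muscle and erythroid axes are logarithmic. The muscle share ran from 0.0098% to 0.9468% over the 8 p21 and SW males, with males 38 and 84 alike, while the adipocyte share stayed between 3.78% and 4.68%.

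The muscle content also differed in fibre type between animals. The fast myosin heavy chain Myh4 stood at 0.201, 289, 6.06 and 0 in p21 males 37, 38, 53 and 54 and at 2071, 186, 1561 and 1521 in SW males 78, 84, 85 and 124. Male 84 was thus below p21 male 38. Myh1, the heavy chain of another fast fibre class, stood at 0.158 to 6.57 at p21 and at 67.2, 3.22, 1435 and 10.7 in the same SW males. Myh7, the slow and cardiac heavy chain, was 121 in male 85 and at most 1.02 in the other 7. Male 85 alone of the 8 therefore carried a high level of all 3 chains, and neither Myh1 (limma adjusted p 0.172) nor Myh7 (limma adjusted p 0.302) was called. Myh1 kept that outcome in 15 of 16 other settings of the analysis and Myh7 in 14. Of 8 slow fibre genes limma called 0 higher and 1 lower. On recovered reads, edgeR and DESeq2 each called 5 of them higher and 1 lower.

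All 24 muscle genes had a higher mean log2 value at p28 SW, with a median change of 4.03 against 0.015 over all genes tested. Of the 24, 19 were called higher and 0 lower. The 5 largest called rises that followed muscle and did not overlap between the ages were in Atp2a1, the calcium pump of fast fibres (5.62, SE 1.63), Actn3, an actin crosslinker of the Z-disc (4.71, SE 1.22), Casq1, a calcium store protein (4.38, SE 1.20), Neb, nebulin (3.99, SE 1.17) and Myoz1, a Z-disc protein (3.56, SE 0.995), with limma adjusted p from 0.0156 to 0.030. The number called was fragile. It was 4 without p21 male 37, 10 without male 53, 6 without male 54, 5 without SW male 78, 9 without male 124, 1 without male 85, and 10 with edgeR's quasi-likelihood test on recovered reads. Of 6 satellite cell and myogenic genes tested, Pax7 and Myod1 among them, 1 was called, the muscle-specific kinase Musk. All 6 had higher means at p28 SW, and 5 stood at an unadjusted limma p under 0.05. DESeq2 called 4 of them higher and edgeR 0.

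Muscle content was then set beside the remaining change in 3 descriptions. The muscle score of an animal is its mean log2(value + 1) over the list, and it was 4.32 in p21 male 38, 1.35 to 2.34 in the other 3, and 6.95, 4.21, 8.11 and 6.37 in SW males 78, 84, 85 and 124. A gene was taken to track muscle when its deviations from the group means followed those of the score with a Pearson r of at least 0.7 over the 24 samples. This limit held for 194 genes (1.21% of those tested), by construction for most of the list itself. Of the 1901 called genes, 78 tracked muscle, all of them higher at p28 SW. Besides 19 list members they were 59 genes outside it, among them the sarcomere genes Mybpc2 (4.73, SE 1.23) and Myom2 (4.12, SE 1.23) and the junction protein Trdn (3.47, SE 1.04). Tropomyosin Tpm1, which other cells also make, stood at 70.2, 114, 92.6 and 74.7 in p21 males and at 393, 100.5, 657 and 318 in SW males 78, 84, 85 and 124. Male 84, with little muscle, lay within the p21 range. None of the 78 was in any non-muscle list used here. Their number was 4 without SW male 85, 25 without p21 male 37, 22 without male 53, 28 without male 54, 17 without SW male 78, 43 without male 124 and 126 without male 84.

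Secondly, the muscle score was added to the fit as a term. Of the 78 tracking genes 0 remained called, and Atp2a1 had a value of -0.01 (SE 0.442) in place of 5.62. These genes were chosen for following that score, so their loss follows from the choice. The other 1823 called genes all kept their direction. They were chosen for following that score less closely, which limits how far the term could move them. Their median absolute change was 0.58 without the term and 0.56 with it, and their standard errors were larger by a median factor of 1.27. The fit with the term called 392 genes (2.45%), 253 higher (1.58%) and 139 lower (0.868%), of which 388 were among the 1823. Its number fell to 83 without SW male 84 and to 174 without p21 male 38. It fell to 1 when only the 8 males entered the fit.

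**Figure D2:**
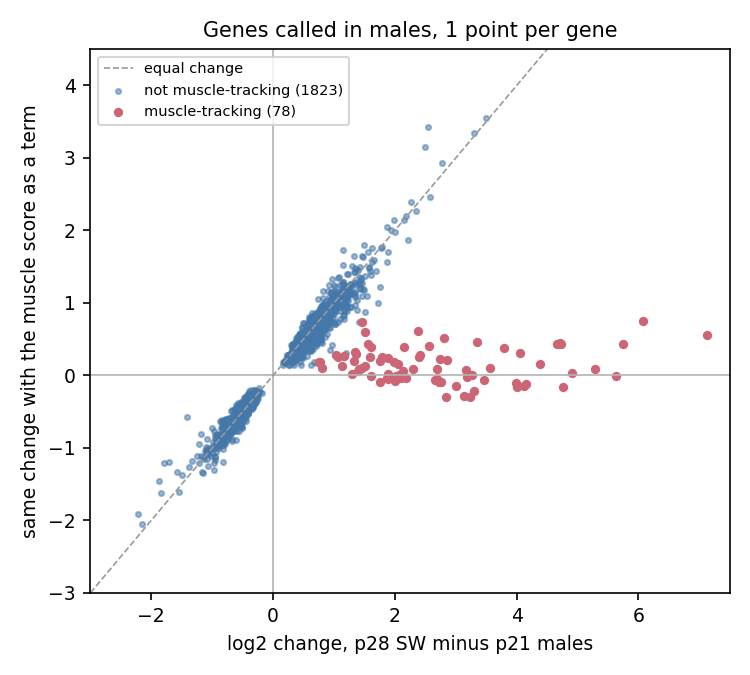
Each point is 1 of the 1901 called genes, placed by its log2 change from p21 to p28 SW (x axis) and by the same change with the muscle score as a term (y axis). The 78 muscle-tracking genes fall near 0 on the y axis, whereas the other 1823 lie along the dashed line of equal change. Both sets were chosen by how closely they followed that score, which largely fixes where they lie.

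Thirdly, p21 male 38 and SW male 84, whose muscle scores were 4.32 and 4.21, were left out of the fit and then compared with each other. The fit without them called 115 muscle-tracking genes, with a median change of 2.65. In male 84 minus male 38 the median difference of these 115 was -0.11, and 38.3% had the sign of the fit. The couple was chosen for its alike scores, which fixes a small difference in genes that track the score. For 642 genes called higher that did not track muscle the medians were 0.78 in the fit and 0.59 in the held-out couple, with the same sign in 91.6%. For 399 such genes called lower they were -0.63 and -0.48, with the same sign in 93.2%. Over all genes tested 62.1% had the same sign. This comparison has 1 animal of each age and no test, and male 84 is the SW library with the fewest detected genes.

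Genes of fatty acid synthesis were examined next. Fatty acids are built from citrate carried out of mitochondria, and its carrier Slc25a1 had values of 419, 571, 719 and 685 in p21 males 37, 38, 53 and 54 and 1528, 1606, 1861 and 1311 in SW males 78, 84, 85 and 124. Every SW male exceeded every p21 male. The log2 change was 1.41 (SE 0.201, limma adjusted p 0.000147), and 1.35 (SE 0.257, adjusted p 0.00665) with the muscle term. Fasn, fatty acid synthase, had values of 4072, 4842, 4990.3 and 6951 at p21 and 8450.1, 10401, 9871 and 12122 at p28 SW. The groups did not overlap, yet the change of 0.99 (SE 0.314, limma adjusted p 0.0435) was near the threshold and was lost when any 1 of p21 males 37, 38 and 53 or SW males 78, 84, 85 and 124 was left out, with adjusted p up to 0.132. Acaca (0.86) and Acacb (0.66), the carboxylases that supply malonyl-CoA, and Tkt (0.99), a transketolase of the pentose phosphate pathway, were also called and were likewise fragile.

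All 16 members of the synthesis list had a higher mean log2 value at p28 SW (median change 0.43), and 5 were called higher, against 6.90% of all genes. That number fell to 1 without any 1 of males 38, 53, 85 or 124, and to 2 without any 1 of males 37, 78 or 84. It was also 1 at equal library totals. Acly, ATP citrate lyase, stood at 1928 to 2573 at p21 and 2892 to 3315 at p28 SW, without overlap, and was not called (0.50, limma adjusted p 0.28). The regulators did not pass the test either. Srebf1 differed by 0.14 (limma adjusted p 0.721), Mlxipl by 0.23 (limma adjusted p 0.543) and Thrsp by 0.23 (limma adjusted p 0.504).

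Desaturases and elongases showed a wider split. Scd1, which makes oleate from stearate, rose from 8337, 8233, 8906 and 11317 to 29072, 36189.7, 32082 and 35983 in SW males 78, 84, 85 and 124. The lowest SW male was above every p21 male by a wide margin. The change was 1.86 (SE 0.41, limma adjusted p 0.00535), and Scd3 rose by 1.59 (limma adjusted p 0.000277) at far lower values, 0.262 to 0.738 at p21 and 3.12 to 4.30 at p28 SW. Scd2, the form prominent in brain and young tissue, stood at 551 to 562 at p21 and 400 to 528 at p28 SW and was not called (-0.28, limma adjusted p 0.529). Elovl6, which extends palmitate, stood at 223, 246, 332 and 277 at p21 and at 763, 1008, 824 and 799 at p28 SW, a rise of 1.66 (SE 0.344, limma adjusted p 0.00345). Elovl3, an elongase of very long saturated and monounsaturated chains that is induced in brown fat by cold, stood at 1.09, 2.04, 0.817 and 1.59 at p21 and at 21.8, 13.7, 7.64 and 4.60 in SW males 78, 84, 85 and 124. All SW males were higher, with more than the spread of the p21 group between them. Its change was 2.27 (SE 0.351, limma adjusted p 0.000298), and DW males were lower than SW males by 2.13 on this log2 scale (limma adjusted p 0.0068). Of the 14 list members 7 had a higher and 7 a lower mean log2 value at p28 SW, with a median change of 0. Called higher were 5, among them Elovl5 (0.41, limma adjusted p 0.0479), whose call was lost in 11 of 16 other settings. Called lower was 1, Fads1 (-0.54, limma adjusted p 0.0326), a desaturase of polyunsaturated chains. Its call was lost without any 1 of males 37, 38, 53 or 124.

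Triglyceride and lipid droplet genes rose in part. Pck1, which makes glycerol phosphate for esterification in fat, stood at 581, 903, 533 and 786 at p21 and at 1538, 1861, 2036 and 1918 at p28 SW. The groups were far apart, with a change of 1.42 (SE 0.221, limma adjusted p 0.000322). Cidec, which fuses lipid droplets, stood at 349.7 to 458 at p21 and 816 to 1018 at p28 SW (1.22, limma adjusted p 0.00252), and the droplet coat gene Plin4 at 726 to 909 and 1594 to 1970 (1.05, limma adjusted p 0.00244). The monoglyceride acyltransferase gene Mogat2 rose by 0.87 (limma adjusted p 9.95e-05) from values of at most 0.324 at p21. Mgll, the last lipase of lipolysis, rose by 0.77 (limma adjusted p 0.005) and the beta-3 adrenoceptor Adrb3 by 0.85 (limma adjusted p 0.0016). Called higher were 4 of 12 assembly genes and 4 of 15 lipolysis and droplet genes, against 6.90% of all genes. Of the 4 lipolysis and droplet genes, 2 (Cidec and Adrb3) are adipocyte markers as well. Of the same 15, 1 was called lower, the beta-1 adrenoceptor Adrb1 (-0.57, limma adjusted p 0.0459), and their median change was 0.01.

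Not all adipocyte products moved the same way. Adipoq, adiponectin, stood at 787 to 803 in the 4 p21 males and at 1318, 1479, 1457 and 1349 in SW males 78, 84, 85 and 124. The tight p21 values lay well below all SW values, and the change was 0.82 (SE 0.137, limma adjusted p 0.000663). Cfd, adipsin, rose by 1.34 (SE 0.339, limma adjusted p 0.0133), a call lost without males 53 and 84 (adjusted p 0.0546). Nrg4, a growth factor released by fat, rose by 0.78 (limma adjusted p 0.000863). Lep, leptin, which usually rises with fat mass, stood at 256, 240.2, 149 and 212 at p21 and at 127, 57, 67.3 and 149 at p28 SW. Males 53 and 124 were alike to 3 digits, and the groups did not overlap. Its change was -1.18 (SE 0.335, limma adjusted p 0.0255), and the call was lost without any 1 of males 37, 38, 84 or 85 and reached adjusted p 0.308 with the muscle term, where the change was -0.81. The adipogenic regulator Pparg (-0.17, limma adjusted p 0.513) and the fatty acid carrier Fabp4 (0.36, limma adjusted p 0.434) were not called. Of the 16 adipocyte markers 4 were called higher (Adipoq, Cidec, Adrb3 and Cfd) and 1 lower (Lep). The list's median change of 0.27 became 0 when each library was scaled to the same total.

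Of 16 brown and beige fat genes only Elovl3 was called. Ucp1, the uncoupling protein of thermogenic fat, stood at 203, 455, 690.1 and 435 in p21 males and at 438, 206, 91.4 and 153 in SW males, with male 78 inside the p21 range. Its change of -1.11 (SE 0.567) did not pass (limma adjusted p 0.214). Among 27 nuclear respiratory chain genes 1 was called, Ndufa1 (1.23, limma adjusted p 0.0017), and among 22 fatty acid oxidation genes Cpt1a, which admits fatty acids to mitochondria, was called higher (0.78, SE 0.106, limma adjusted p 0.000104) and Acaa2 lower. Over all genes 6.90% were called higher and 4.97% lower, and none of these lists was above those shares.

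Some sterol genes were lower at p28 SW. Msmo1, an oxidase of the late steps of cholesterol synthesis, stood at 37.6, 34.7, 46.0 and 34.4 in p21 males and at 20.4, 25.0, 19.0 and 19.0 in SW males 78, 84, 85 and 124. No SW male reached the p21 range, and the change was -0.84 (SE 0.145, limma adjusted p 0.000841). Hsd17b7, a reductase of the same steps, stood at 17.7, 16.3, 19.3 and 15.9 and then at 8.12, 11.7, 6.76 and 7.46. The groups did not overlap (-0.97, SE 0.213, limma adjusted p 0.00535). Of the 21 sterol genes 5 were called lower, against 4.97% of all genes, and 0 higher. The list's median was -0.44, and 3 of the 5 remained called with the muscle term, Msmo1 among them (-0.69, SE 0.179, limma adjusted p 0.0403).

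The promoters of 1 gene from the fatty acid synthesis list and 1 from the sterol list are shown, from RefSeq on GRCm38.p6, as 250 bases before and 50 after the start. Both are on the minus strand, Slc25a1 at chr16:17928170-17928469 and Msmo1 at chr8:64733529-64733828. Capitals mark CCAAT, the box bound by NF-Y, and the E-box core CACGTG, each searched on both strands, so that a match on the other strand appears as its reverse complement.
Slc25a1: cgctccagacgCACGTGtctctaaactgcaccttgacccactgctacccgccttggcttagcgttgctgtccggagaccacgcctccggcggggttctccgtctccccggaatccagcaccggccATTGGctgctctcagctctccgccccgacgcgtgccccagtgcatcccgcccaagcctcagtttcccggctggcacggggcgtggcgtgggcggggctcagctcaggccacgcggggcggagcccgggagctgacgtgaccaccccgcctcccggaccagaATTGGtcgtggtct
Msmo1: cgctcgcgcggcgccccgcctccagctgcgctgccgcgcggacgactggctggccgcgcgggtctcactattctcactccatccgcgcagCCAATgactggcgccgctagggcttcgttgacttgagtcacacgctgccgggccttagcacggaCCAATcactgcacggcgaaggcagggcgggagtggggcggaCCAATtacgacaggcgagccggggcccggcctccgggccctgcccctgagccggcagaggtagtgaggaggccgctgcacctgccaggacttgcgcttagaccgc
CCAAT was present in 13 of 13 sterol genes with a promoter listed and in 16 of 26 genes of fatty acid synthesis, elongation and desaturation (61.54%), against 41.06% of 27025 genes. CACGTG was present in 19.23% of the 26 and 23.08% of the 13, against 8.09% of all genes. A sterol element written TCACCCCAC was found in 1 of the 13 and in 0.61% of all genes. These are matches of letters only.

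**Figure D3:**
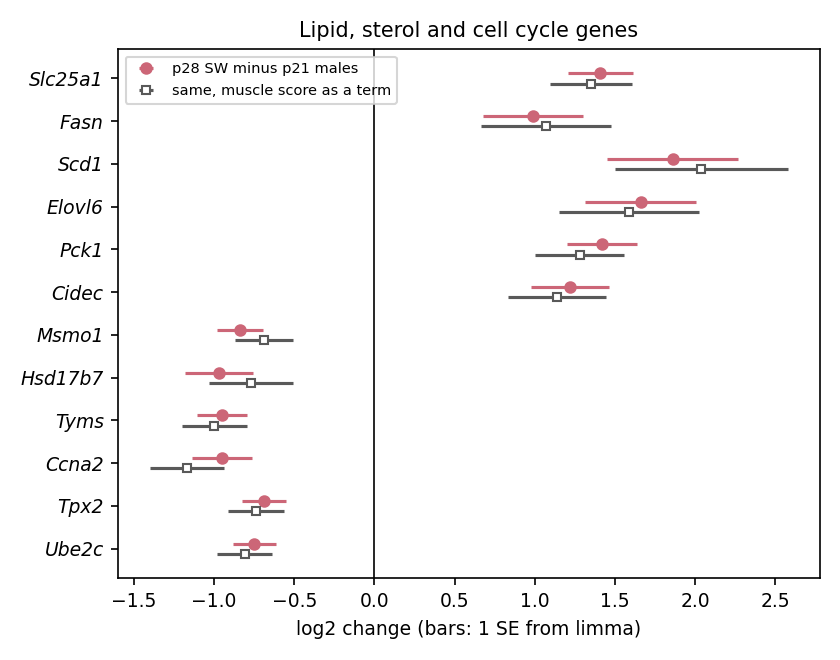
Log2 changes from p21 to p28 SW for lipid, sterol and cell cycle genes (filled circles) and the same changes with the muscle score as a term (open squares); bars are 1 SE from limma. Slc25a1 (1.41), Scd1 (1.86) and Pck1 (1.42) lie to the right of 0, and Msmo1 (-0.84), Ccna2 (-0.95) and Ube2c (-0.75) to the left, in both fits.

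Cell cycle genes were lower at p28 SW. Ube2c, which directs mitotic proteins to destruction, stood at 8.75, 11.0, 11.0 and 8.31 in p21 males and at 6.81, 5.24, 5.10 and 4.52 in SW males 78, 84, 85 and 124. The groups did not overlap and the change was -0.75 (SE 0.133, limma adjusted p 0.00108). Tpx2, a spindle factor, fell by 0.69 (limma adjusted p 0.00244) and Birc5, survivin, by 0.74 (limma adjusted p 0.00252). Top2a, which untangles replicated DNA, stood at 32.2 to 41.5 and 18.4 to 25.1 (-0.71, SE 0.178, limma adjusted p 0.0131). All 26 mitosis genes had a lower mean log2 value (median -0.51), and 7 were called lower, a number that fell to 4 without p21 male 38 or SW male 124 and was 15 with DESeq2 and 20 at equal library totals. Mki67, the usual proliferation marker, just missed the threshold (-0.41, limma adjusted p 0.0521).

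Of 28 DNA replication genes 17 were called lower and 0 higher (median -0.54). Tyms, thymidylate synthase, stood at 8.84, 10.4, 12.8 and 9.12 and then at 6.38, 3.70, 4.81 and 4.66, without overlap (-0.95, SE 0.158, limma adjusted p 0.000626). Mcm2, of the replicative helicase, stood at 15.1 to 20.3 and 8.79 to 12.3 (-0.75, limma adjusted p 0.00174), and 6 of the 17 called genes were helicase subunits Mcm2 to Mcm7. Ccna2, cyclin A2, fell by 0.95 (limma adjusted p 0.0027) and Rrm2, of ribonucleotide reductase, by 0.95 (limma adjusted p 0.0138). In the fit with the muscle term 4 replication and 3 mitosis genes were called, all lower. Erythroid genes and some lymph node and T cell genes fell as well, with the values given further on, and their part in the cell cycle result was not tested.

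Males kept with the mother differed from SW males in 41 of 16005 genes (0.256%), and 6 of the cell cycle genes called here were among them. In DW minus SW males the differences were 0.63 for Ube2c, 1.06 for Tpx2, 1.05 for Top2a, 1.01 for Kif20a, 1.34 for Prc1 and 1.17 for Ccna2, each with limma adjusted p under the threshold. Mki67 also passed, at 1.08. Birc5, Rrm2, Mcm2 and Tyms, which were called lower from p21 to p28 SW, did not pass (limma adjusted p 0.113 to 0.758). The age and weaning comparisons share the SW males. In DW minus p21 males Prc1 (0.75) and Mki67 (0.66) were called higher by limma. Mcm2 (-0.43) and Tyms (-0.64) were called lower there. The differences for Ube2c, Tpx2, Top2a, Kif20a, Ccna2, Birc5 and Rrm2 did not pass in that comparison.

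The promoters of Ube2c (chr2:164769679-164769978, plus strand) and Top2a (chr11:99024140-99024439, minus strand; RefSeq, GRCm38.p6) are shown because mitosis genes are known for a CCAAT box together with a CHR element. Capitals mark CCAAT and the CHR letters TTTGAA on either strand, and in Ube2c a pair of CCAAT matches on opposite strands overlaps.
Ube2c: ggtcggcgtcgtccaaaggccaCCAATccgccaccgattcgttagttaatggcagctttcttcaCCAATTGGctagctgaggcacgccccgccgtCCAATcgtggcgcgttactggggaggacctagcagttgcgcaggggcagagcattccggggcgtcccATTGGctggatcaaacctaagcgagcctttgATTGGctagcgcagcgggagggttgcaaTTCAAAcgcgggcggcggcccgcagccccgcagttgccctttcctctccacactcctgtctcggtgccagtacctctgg
Top2a: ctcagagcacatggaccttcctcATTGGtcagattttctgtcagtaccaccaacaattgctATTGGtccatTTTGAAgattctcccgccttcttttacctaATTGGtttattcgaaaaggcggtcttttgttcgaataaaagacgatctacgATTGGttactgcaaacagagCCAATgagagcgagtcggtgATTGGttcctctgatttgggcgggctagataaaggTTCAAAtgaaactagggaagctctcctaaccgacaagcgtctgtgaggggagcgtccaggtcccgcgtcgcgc
In Ube2c the CHR letters begin 29 bases before the start and in Top2a 23 bases before it, with another match 179 bases before it. Of 23 mitosis genes with a promoter listed, 18 (78.26%) had CCAAT and 18 (78.26%) had TTTGAA, against 41.06% and 20.23% of all genes. Among 22 replication genes TTTGAA was present in 2, whereas the E2F letters GGCGGGAA were present in 5 (22.73%), against 2.52% of all genes.

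Macrophage genes were higher at p28 SW. Csf1r, the receptor that keeps macrophages alive, stood at 45.0, 44.0, 26.0 and 30.5 at p21 and at 65.8, 70.1, 63.5 and 101 in SW males 78, 84, 85 and 124. All SW males were above all p21 males (1.04, SE 0.184, limma adjusted p 0.00109). Timd4, a marker of long-lived resident macrophages, stood at 19.0 to 27.0 and 38.6 to 71.4 (1.16, SE 0.201, limma adjusted p 0.000898). The scavenger receptor Marco, at 6.20, 1.13, 18.4 and 29.8 and then 44.4, 60.7, 48.2 and 77.3, rose by 2.55 (SE 0.584, limma adjusted p 0.00699). The lectin gene Cd209b, at 3.84 to 14.9 and 38.1 to 77.5, rose by 2.50 (SE 0.311, limma adjusted p 5.05e-05), and by 3.15 with the muscle term. Both genes are also known from macrophages of lymph node sinuses and spleen. Complement C1qb (1.04) and the lysosomal marker Cd68 (1.22) rose, while Itgax, raised on macrophages of obese fat, differed by 0.09 (limma adjusted p 0.828). Of 18 macrophage genes 11 were called higher (median 0.88), and 4 without males 53 and 84.

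Interferon response genes were higher too, 12 of 17 called (median 0.90). Ifit3 stood at 22.6, 14.7, 17.3 and 11.0 at p21 and at 31.5, 41.3, 103 and 32.4 in SW males 78, 84, 85 and 124. Male 85 was far above the other 3, which still exceeded the p21 males (1.47, SE 0.289, limma adjusted p 0.00244). Irf7, a transcription factor that amplifies interferon, rose by 1.08 (limma adjusted p 0.00602). The mean log2 level of the list was 5.03 in male 85 and 4.25 to 4.33 in the other SW males, against 3.40 to 3.93 at p21. Male 85 was also the animal with the most muscle reads. With the muscle term 2 of the 12 remained called, Xaf1 and Oas1a.

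Lymph node and T cell genes gave a different picture. Glycam1, a ligand made by the high endothelial venules of lymph nodes, stood at 1183, 632, 1746 and 773 at p21 and at 262, 837, 587 and 348 at p28 SW, with overlap (-1.12, limma adjusted p 0.0246), a call lost without any 1 of males 37, 53, 78 or 124. Chst4, an enzyme of the same venules, fell without overlap (-1.11, SE 0.208, limma adjusted p 0.00171). The T cell receptor chains Cd3g (-0.78, limma adjusted p 0.0098) and Cd3e (-0.73, limma adjusted p 0.0213) fell, and all 14 T cell genes had lower means (median -0.48). The number of T cell genes called was 2, and it was 1 without male 53, 78 or 84, 7 without male 124 and 0 without both 53 and 84. It was 4 with DESeq2, 13 at equal library totals and 0 with only the 8 males. The lymph node stroma number was 3, and 1 without male 37, 53 or 78. None of 13 B cell genes was called by limma (0 also at an unadjusted p under 0.05, 0 with DESeq2 and 0 with edgeR), and their mean level was 5.27 to 6.42 at p21 and 5.53 to 6.10 at p28 SW.

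Erythroid genes fell. Alas2, the haem synthesis enzyme of red cell precursors, stood at 50.2, 43.9, 90.9 and 112 in p21 males and at 34.0, 12.0, 10.6 and 8.61 in SW males 78, 84, 85 and 124. Male 78 was nearest to the p21 group and did not reach it (-2.22, SE 0.374, limma adjusted p 0.000689). Haemoglobin Hba-a1 stood at 176 to 635 and 64.8 to 188, with male 78 inside the p21 range (-1.72, SE 0.385, limma adjusted p 0.00603). Bpgm (-1.22), an enzyme of red cells, and the anion exchanger Slc4a1 (-1.84) were among the 12 largest falls. The call of Slc4a1 was lost without any 1 of males 38, 53, 54, 84, 85 or 124. It was also lost with edgeR, with DESeq2 and with a pseudocount of 0.1, and in 11 of 16 other settings in all. Of 19 erythroid genes tested 10 were called lower and 0 higher (median -1.08). The list took 0.1211% to 0.3125% of reads at p21 and 0.0526% to 0.0981% at p28 SW, without overlap.

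The rise of the major urinary protein genes was the largest outside muscle. These encode pheromone carriers secreted mainly by liver, and their copies are so alike that reads may be shared among them, so single values are uncertain. Mup11 stood at 13.2, 11.6, 11.9 and 14.3 at p21 and at 152, 204, 185 and 96.2 in SW males 78, 84, 85 and 124. The lowest SW value lay far above the highest p21 value (3.49, SE 0.296, limma adjusted p 8.88e-07). Mup22 rose by 3.30, Mup15 by 2.77, Mup10 by 2.58 and Mup7 by 2.35. Of 19 members tested 14 were called higher (median 1.23) and 9 remained so with the muscle term. Mup7 rose more in females, by a further 1.96 (limma adjusted p 0.0463). It was one of the 165 genes (1.03%) with a sex by age interaction called by limma. That p is near the threshold, and the values of Mup7 in p21 males were low, 0.725 to 4.00. The number of interactions called also depended strongly on the test and the pseudocount, as given at the end. Nrg4, also among the 165, did not pass the test in females (-0.10, limma adjusted p 0.718), a difference from males of -0.87.

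Some detoxification genes were higher at p28 SW. Gsta3, a glutathione transferase, stood at 26.2, 16.1, 17.8 and 18.2 at p21 and at 63.8, 58.5, 70.6 and 45.9 at p28 SW, without overlap (1.57, SE 0.239, limma adjusted p 0.000277). The carboxylesterase Ces1f rose by 1.22 (limma adjusted p 0.000153), Ces1d, which also hydrolyses triglyceride in fat, by 0.80 (limma adjusted p 0.00123) and aldehyde oxidase Aox1 by 0.94 (limma adjusted p 0.000386). The ethanol-oxidising cytochrome Cyp2e1 rose by 1.61 (limma adjusted p 0.0152), a call lost without male 53. Of 27 such genes 10 were called higher (median 0.48), and 5 without males 53 and 84.

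Complement genes were partly the same as the macrophage and adipocyte products above. C6, of the membrane attack complex, rose from 0.249 to 0.802 at p21 to 1.89 to 3.89 at p28 SW (1.34, SE 0.17, limma adjusted p 5.56e-05). Called higher were 8 of 16 (median 0.54), a number that fell to 3 without p21 male 53 and to 4 without male 54, 84 or 124, and 1 was called lower, Masp1 (-0.72). Among vessel genes, 5 of 15 were called higher. Cldn5, a tight junction protein of endothelium, stood at 13.7, 25.0, 24.7 and 27.6 and then at 77.1, 56.3, 102 and 64.1, without overlap (1.68, SE 0.253, limma adjusted p 0.00023). Vwf rose by 0.87 (limma adjusted p 0.00724), and Gpihbp1, which carries lipoprotein lipase across capillaries, by 0.71 (limma adjusted p 0.0153). The vessel number was 3 without SW male 78 or without male 85. At equal library totals 2 vessel genes were called higher and 2 lower.

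**Figure D4:**
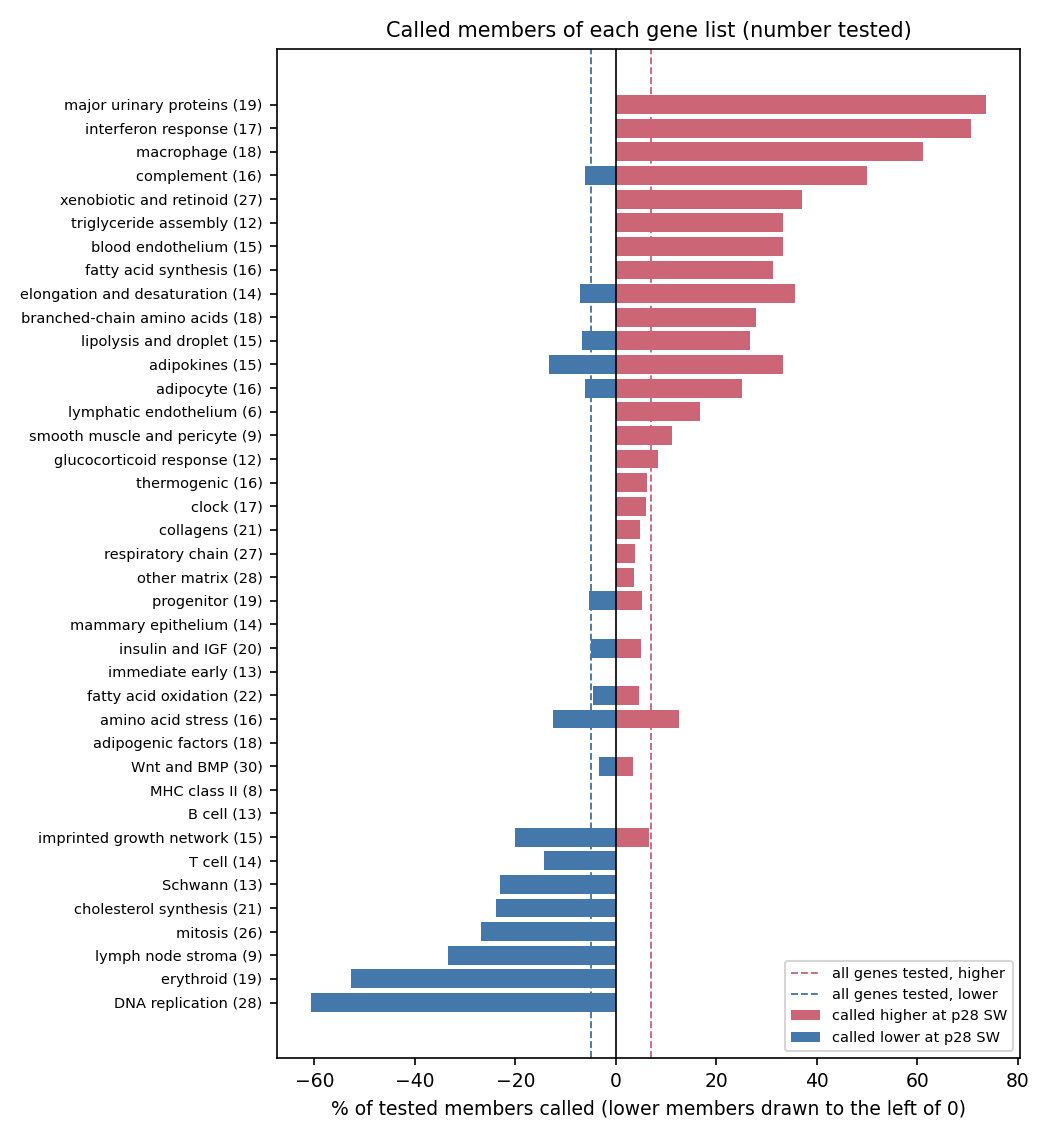
Percent of tested members of each non-muscle list called higher (right) or lower (left) from p21 to p28 SW in males, with the number tested in brackets; dashed lines are the shares over all genes tested, 6.90% higher and 4.97% lower. Major urinary protein, interferon response and macrophage genes extend furthest to the right and DNA replication and erythroid genes furthest to the left.

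Developmental and nerve genes were among the largest falls that did not track muscle. Lgr6, a receptor for R-spondins that marks stem cells of skin, stood at 8.51, 10.0, 11.2 and 10.6 at p21 and at 3.07, 2.31, 0.751 and 0.634 at p28 SW. The highest SW male was below every p21 male (-2.15, SE 0.231, limma adjusted p 1.15e-05). Dlk1, an inhibitor of adipocyte formation made by preadipocytes, stood at 4.70 to 8.64 and 1.22 to 2.28 (-1.54, SE 0.261, limma adjusted p 0.000717). Of the imprinted growth genes it belongs to, 3 of 15 were called lower, with Ndn (-0.79) and Peg10 (-0.94), and 1 higher, Peg3 (0.77, limma adjusted p 0.0493). The call of Peg10 was lost without any 1 of males 37, 38, 85 or 124. S100b, made by Schwann cells and also by adipocytes, stood at 15.1 to 25.3 and 5.84 to 11.4 (-1.33, SE 0.204, limma adjusted p 0.000277). Of 13 Schwann cell genes 3 were called lower (median -0.23). Named falls outside the lists were Tent5c, a poly(A) polymerase (-1.49), Rhbdl3 (-1.38) and Slc6a13, a GABA transporter (-1.25).

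Of the remaining named rises, Oxtr, the oxytocin receptor, stood at 11.2, 14.7, 2.45 and 4.68 at p21 and at 42.2, 37.4, 40.8 and 24.1 at p28 SW, without overlap (2.21, SE 0.365, limma adjusted p 0.00055). Il22ra2, a soluble decoy for interleukin 22, rose by 2.14 (limma adjusted p 9.32e-06), and Hephl1, a copper-dependent ferroxidase, by 2.01 (limma adjusted p 0.000105). Kng2, a kininogen gene, fell by 1.22 (limma adjusted p 0.0139), a call lost without male 53 or 85.

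**Figure D5:**
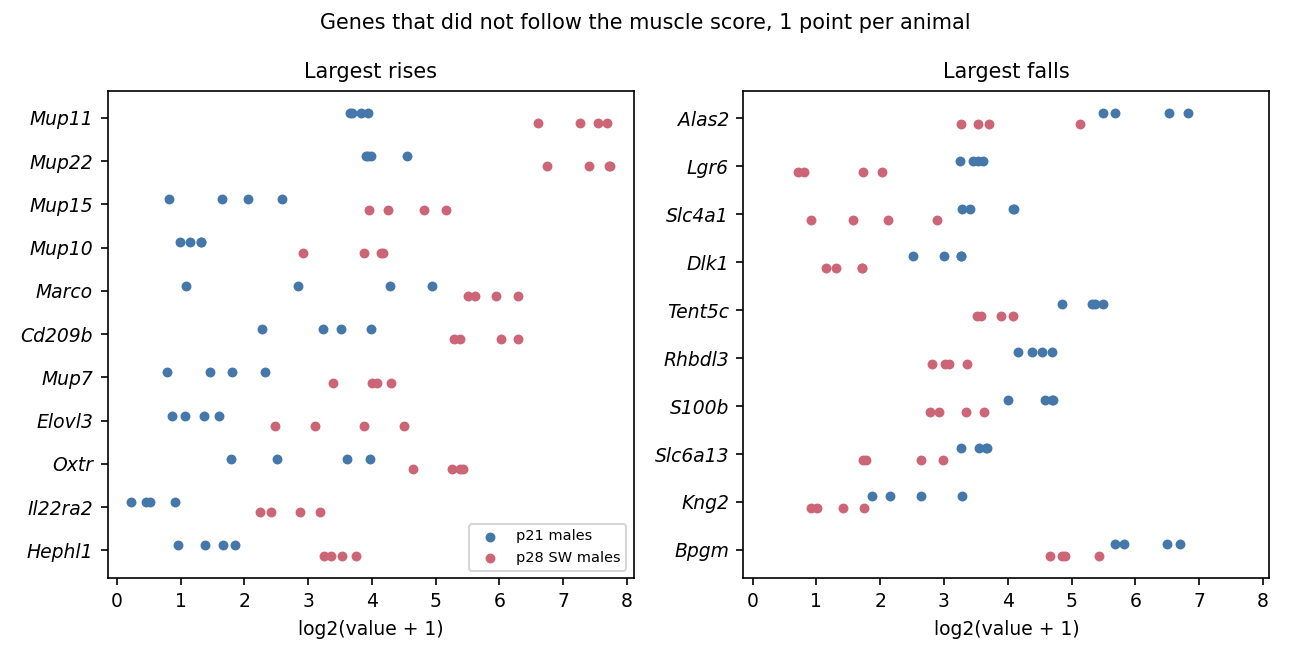
Values on the log2(value + 1) scale for 11 of the 12 largest rises and 10 of the 12 largest falls that did not track muscle and did not overlap between the ages, with 1 point per animal in the p21 and p28 SW groups. Male 78 is the SW animal nearest to the p21 group for Alas2 (34.0) and Bpgm (42.3).

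Of 18 genes that break down branched-chain amino acids, a fuel of fat cells, 5 were called higher, against 6.90% of all genes. Among them was Ivd (0.54, limma adjusted p 0.00898). The number called higher was 3 without any 1 of males 38, 53, 78, 84 or 85. At equal library totals 0 of these genes were called higher and 3 lower. Of 16 genes of the amino acid stress list 2 were called higher (Chac1 and Sesn2) and 2 lower (Phgdh and Mthfd2). Phgdh, the first enzyme of serine synthesis, stood at 62.5 to 86.9 at p21 and at 31.6, 31.6, 33.0 and 58.8 in SW males 78, 84, 85 and 124 (-0.99, SE 0.175, limma adjusted p 0.000981), and Mthfd2 of the mitochondrial folate cycle fell by 1.06 (limma adjusted p 0.000578). Male 124 was the highest SW male for both. Hsd11b1, which regenerates active glucocorticoid, rose by 1.10 (SE 0.213, limma adjusted p 0.00214) and was highest in the same animal, at 132 against 53.9 to 61.6. Among matrix genes, Col1a1 differed by -0.26 (limma adjusted p 0.693). Called higher were 1 of 21 collagens and 1 of 28 other matrix genes (Tnc, 0.62), shares not above the 6.90% of all genes. None of 18 adipogenic factors, 14 mammary epithelial, 13 immediate early or 8 MHC class II genes was called by limma. At an unadjusted p under 0.05 stood 4 adipogenic factors, 1 MHC class II gene and 0 of the others. With edgeR 0 of each were called in either direction, and with DESeq2 1 adipogenic factor was called higher.

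The scaling between the ages bears on every small change. The deposited values summed to 838094 to 916230 in p21 males and to 1012837 to 1081208 in SW males. Of the difference in means, mt-Co1, a mitochondrial subunit of cytochrome oxidase, made 21.39%, mt-Cytb 15.05% and Scd1 13.59%, and the muscle list 2.86%. The SW values of mt-Co1 (83824 to 100910) lay above those at p21 (38721 to 65773), and it was not called (0.80, SE 0.677, limma adjusted p 0.482). Nor was mt-Cytb (0.84, limma adjusted p 0.342). Each stayed uncalled in 14 of 16 other settings of the analysis and was called in the rest. When every library was scaled to an equal total, the median of all genes moved from 0.01 to -0.19, 3914 genes were called and 15.5% of them were higher, against 58.1%. At equal totals the fatty acid synthesis (0.16), macrophage (0.64), interferon (0.64) and urinary protein (1.10) medians were still positive and the sterol (-0.59), replication (-0.76) and erythroid (-1.22) medians still negative. Of the fatty acid synthesis genes, however, 1 was called higher at that scaling, and the calls of Fasn, Acaca, Acacb and Tkt were lost. The medians of vessel genes (0.26 to -0.01), lymphatic endothelium (0.22 to -0.03), smooth muscle and pericytes (0.24 to -0.03), progenitors (0.23 to -0.04), collagens (0.04 to -0.13) and other matrix genes (0.11 to -0.12) changed sign. So did those of branched-chain amino acid breakdown (0.21 to -0.05), lipolysis and droplets (0.01 to -0.26), fatty acid oxidation (0.01 to -0.25), adipokines (0.13 to -0.05), insulin and IGF signalling (0.09 to -0.17) and B cells (0.01 to -0.25).

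In the authors' deposited table for the same comparison, the fold change had the direction found here for all 1901 called genes. The values headed as adjusted p in that table were 16104 distinct numbers among 16108, of which 4594 were under 0.05, and they were not used further.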

How the data were processed

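Poly(A) RNA libraries were trimmed, aligned and counted with fastp, HISAT2 and featureCounts against mm10 and normalised with DESeq2 1.38.3, per the submitters' processing notes. The authors deposited a normalised signal per gene and animal, together with log2 fold changes and p-values per comparison. The signal is reads divided by a factor per library, on a scale where a value of 1 is many reads. All values (100%) were whole multiples of 1 read within 0.01, so reads were recovered. Of 16208 rows, 90 that repeated a gene were dropped, leaving 16118, all protein-coding. The p21 titles give another age than the age labels, which were followed. Gene positions in the file fit no build used here and are not printed.

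Genes passing filterByExpr (minimum count 10) were fitted with limma 3.58.1 (R 4.3.3) on log2(value + 1) with a variance trend, using all 24 samples, 6 groups and 18 residual degrees of freedom. The fit with the muscle term added the muscle score. Genes were named by rule among those called: the 12 largest non-overlapping rises and falls that did not track muscle at r of 0.7, the 5 largest that did, and any list gene. Mybpc2, Myom2, Trdn, Tpm1 and the mitochondrial genes lie outside the rule and were chosen after their values were seen. Some genes are not reported here, and counts over lists include them. The members and all 42 lists were chosen with earlier results of these data known. The limma fit was also run on simulated counts, with each gene drawn independently and no shared differences in muscle or library composition. Its outcome is not given here and is not used as support. Alternatives were edgeR 4.0.16, DESeq2 1.42.0, no filter, pseudocount 0.1, equal totals, the 8 males only, and leaving out animals. Where recovered reads are few, precision is limited by counting.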

Additional observations from a re-analysis of the deposited data

Results flagged for a closer look

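In 19 of 308 groups of 4 males tested (110 genes, 42 lists and library measures), 1 animal lay far from the other 3, with a gap above Dixon's critical value for 4 samples, where chance gives about 15.4. Values here are log2(value + 1). Among p21 males, animal 54 was at 4.55 for Mup22 (others 3.91 to 3.99) and at 4.93 for the clock list (others 4.56 to 4.61). Animal 53 was at 0.34 for Scd3 (others 0.78 to 0.80) and had 14054 detected genes. Animal 38 was at 3.33 for Myom2 (others 0.00 to 0.13) and 2.18 for Trdn (others 0.00 to 0.18). Animal 37 was at 3.88 for Cldn5 (others 4.69 to 4.84).

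Among SW males, animal 78 was at 1.93 for Chst4 (others 2.54 to 2.63), 4.42 for the erythroid list (others 3.70 to 3.82) and 1.94 for the mammary epithelium list (others 0.40 to 0.55). Animal 84 was at 7.55 for Myh4 (others 10.57 to 11.02) and 7.23 for the fatty acid oxidation list (others 7.04 to 7.07), and had 15497 detected genes. Animal 85 was at 6.93 for Myh7 (others 0 to 1.02), 4.94 for the slow muscle list (others 1.66 to 1.80) and 5.03 for the interferon response list (others 4.25 to 4.33). Animal 124 was at 3.40 for Mthfd2 (others 2.93 to 3.00), 5.90 for Phgdh (others 5.03 to 5.09) and 7.06 for Hsd11b1 (others 5.78 to 5.97).

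Of the genes named, the age change differed between the sexes by limma's interaction test in Mup7 (1.96 larger in females, adjusted p 0.0463) and Nrg4 (-0.87, adjusted p 0.0196). Males at p28 differed by weaning, DW minus SW, in Elovl3 (-2.13), Ube2c (0.63), Tpx2 (1.06), Top2a (1.05), Kif20a (1.01), Prc1 (1.34), Mki67 (1.08) and Ccna2 (1.17).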

How the results depend on the processing

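The count of genes called from p21 to p28 SW (1901) became 3914 at equal totals, 822 with only the 8 males, 1037 without p21 male 53 and SW male 84 and 1156 without males 38 and 84. Leaving out each animal gave 1150 to 1723. With the muscle term the count (392) became 871 with DESeq2, 1114 at equal totals, 1 with only the 8 males, 93 without males 53 and 84 and 17 without males 38 and 84, and 83 to 460 without each animal. Muscle-tracking calls (78) became 146 with DESeq2 and 4 to 126 without each animal. The weaning difference in males (41) became 111 with DESeq2, 16 without males 38 and 84 and 17 to 71 without each animal. The sex by age count (165) became 4 with edgeR, 102 with DESeq2, 38 with pseudocount 0.1, 88 without males 38 and 84 and 115 to 190 without each animal. The smaller fits have fewer samples; otherwise the cause was not tested. Of the named genes called here, 56 of 95 were called in all 16 other settings, and none reversed. Leaving out males 53 and 84 or males 38 and 84, and the settings for weaning and sex by age, were chosen after seeing the data. No paired analysis was possible because the groups share no animal numbers.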
